A study of Mus musculus with 6 samples.

Results

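A set of 9 genes that mark sensory neurons at different stages of maturation was followed in the vomeronasal organ of wild-type and Cnpy1 knockout mice. The genes were listed by name as known markers, with earlier results of these data known, and no measured value enters the rule. They are Omp and Stom for mature neurons, Gap43, Stmn2 and Dcx for immature neurons, and Tubb3, Uchl1, Ncam1 and Ncam2 for neurons of both stages. They are 9 of 35450 genes to which the deposited transcripts were summed, and all 9 are among the 16679 genes that passed the filter on low counts. The balance of immature to mature genes was taken as the summed level of Gap43, Stmn2 and Dcx relative to that of Omp and Stom.

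The vomeronasal organ is the paired chemosensory organ of the nasal septum that detects pheromones. Its sensory neurons are replaced throughout life from dividing precursors. A newly formed neuron grows an axon to the accessory olfactory bulb and expresses growth cone and microtubule genes such as Gap43, Stmn2 and Dcx. As it matures these genes are turned down, and Omp, the receptors and the signalling genes of the mature neuron are turned up. In a bulk library the ratio of the 2 sets of transcripts therefore reads the mixture of stages in the tissue, together with the amount of each transcript per cell.

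RNA came from mice at postnatal day 60, of which 3 were wild type (Cnpy1+/+) and 3 were homozygous knockouts (Cnpy1-/-). All were littermates by the description of the series, and neither treatment nor transgene is given for either group. Each genotype had 2 males and 1 female: wild type 2 and knockout 3 are the females. Both organs of a mouse were freed of bone and lysed whole for 1 poly(A)-selected, directional library, so each library mixes neurons with supporting cells, glia, blood and vessels. The labels do not describe how the knockout allele was made.

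Libraries held 60969508 to 71670766 estimated reads. Cnpy1 itself lay at 280.0, 303 and 325 CPM in the wild types and at 67.2, 77.6 and 76.3 CPM in the knockouts, so transcripts of the locus were reduced and still present. CPM here are counts of a gene relative to all reads in genes (counts per 1000000), scaled between libraries by the trimmed mean of M-values (TMM). Trpc2, the cation channel of vomeronasal transduction, lay at 284 to 339.8 CPM in the wild types and 234 to 268 in the knockouts. Gnai2 and Gnao1, G protein subunits of the apical and the basal neuron class, were both detected in every library, Gnai2 at 619.9 to 749 CPM and Gnao1 at 225 to 320.1 CPM. The third library of each genotype stood apart in transcripts with retained introns, which made up 1.31% of reads in wild type 3 and 1.16% in knockout 3, against 1.01% to 1.095% in the other 4 libraries. The test of genotype, the balance and the list medians were therefore also computed without both of them. That subset has 1 male and 1 female wild type against 2 male knockouts, so genotype and sex cannot be told apart within it.

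Of the 9 genes, 1 was called different between genotypes, Stom, which fell in the knockouts, in a call that was lost whenever any 1 library was left out and held in 6 of 17 alternatives. A gene is called when edgeR's quasi-likelihood F test gives a Benjamini-Hochberg adjusted p under 0.05 over all genes tested. Of the 16679 genes tested, 127 (0.761%) were called, 114 (0.683%) of them lower and 13 (0.0779%) higher. In CPM, 3 of the 9 genes (Omp, Stom and Tubb3) were lower in every knockout than in every wild type, and none was higher in every knockout. Without adjustment, 10.5% of all genes tested had a p under 0.05, as did 4 of the 9 genes (Omp, Stom, Tubb3 and Uchl1). Over all genes tested, 8.95% were lower in every knockout and 7.22% higher in every knockout. The median log2 fold change, knockout over wild type, was -0.08 over the 9 genes and 0.01 over all genes tested. The 3 immature genes gave small positive estimates whose groups overlapped, and the 2 mature genes gave negative estimates whose groups did not overlap.

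**Figure D1:**
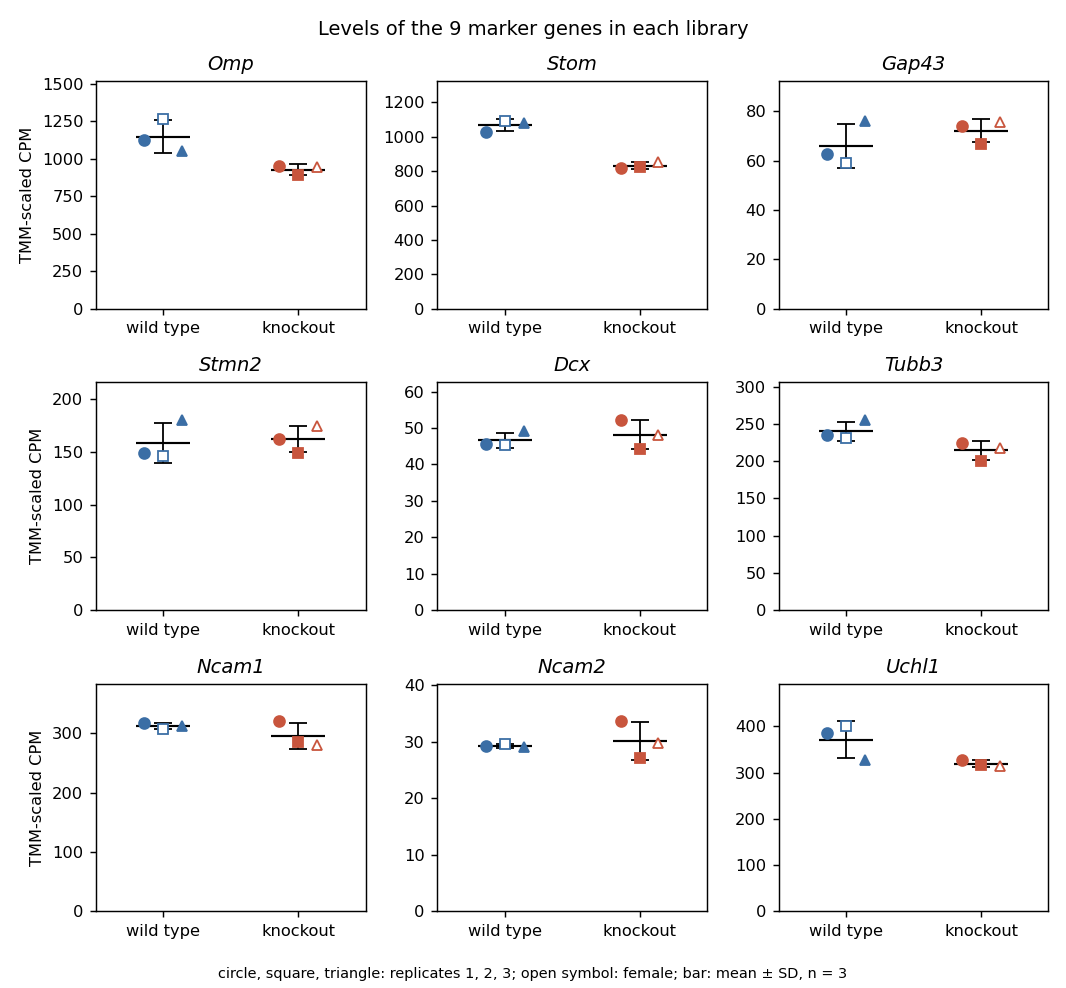
Level of each of the 9 marker genes in every library, in TMM-scaled CPM on a linear axis from 0, with wild types in blue and knockouts in red, a horizontal line at the mean and bars of 1 SD (n = 3 mice per genotype). The knockouts lie below all wild types for Omp, Stom and Tubb3 and overlap the wild types for the other 6 genes.

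Omp encodes olfactory marker protein, a small cytosolic protein of mature olfactory and vomeronasal neurons. The gene (ENSMUSG00000074006.3) is a single exon of 2144 bases at chr7:98143359-98145502 on the minus strand of GRCm38. Its level was 1125, 1264 and 1051 CPM in wild types 1 to 3 and 952, 888 and 944 CPM in knockouts 1 to 3. Every knockout was below every wild type, and the gap between the lowest wild type and the highest knockout was smaller than the range of the wild types. The mean was 1147 ± 108 CPM (SD, n = 3) in the wild types and 928 ± 34.8 CPM (SD, n = 3) in the knockouts, which is 80.9% of wild type. The log2 fold change was -0.31 (SE 0.08), and edgeR's quasi-likelihood test gave an unadjusted p of 0.00458 and an adjusted p of 0.203, so Omp was not called. Its estimate was negative in each of the 17 alternative analyses, from -0.38 to -0.23. DESeq2 called it, with an adjusted p of 0.00588, and the other 16 did not, with adjusted p up to 0.767.

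Stom encodes stomatin, a membrane protein of lipid rafts that binds the inner face of the membrane and modulates ion channels. The gene (ENSMUSG00000026880.11) lies at chr2:35313986-35336976 on the minus strand, and its main transcript has 7 exons and 2787 bases. Its level was 1027, 1093 and 1082 CPM in wild types 1 to 3 and 816, 825 and 853 CPM in knockouts 1 to 3. The groups were well apart, and both were tight. The mean was 1067 ± 35.6 CPM (SD, n = 3) in the wild types and 831 ± 19.8 CPM (SD, n = 3) in the knockouts, or 77.9% of wild type. Stom fell by 0.36 on the log2 scale (SE 0.06), with an adjusted p of 0.0356 in edgeR's quasi-likelihood test. In a whole organ, fewer cells of a type and less RNA per cell cannot be told apart.

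The direction and size for Stom were alike in all 17 alternatives, from -0.44 to -0.34, but the call was not. It was called in 6 of them and in none of the 6 that left out 1 library, where the adjusted p from edgeR's quasi-likelihood test ran from 0.0698 to 0.202. It was also lost with no scaling factors, on log2(TPM + 1) values, with the replicate number as a block, in males only, and in the first and second libraries alone. DESeq2 gave it the smallest adjusted p, 1.57e-08, and limma on log2(TPM + 1) the largest, 0.436.

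As Stom is the called gene, the start of its promoter is shown to give the sequence context of the gene. RefSeq's window from 250 bases before to 50 bases after the start of transcription in GRCm38.p6 is chr2:35336960-35337259, read on the minus strand, and 63.3% of its bases are G or C. The capitals mark its 1 match to CAGCTG, an E-box, the kind of site that basic helix-loop-helix factors bind, which begins 22 bases before the start.
Stom promoter: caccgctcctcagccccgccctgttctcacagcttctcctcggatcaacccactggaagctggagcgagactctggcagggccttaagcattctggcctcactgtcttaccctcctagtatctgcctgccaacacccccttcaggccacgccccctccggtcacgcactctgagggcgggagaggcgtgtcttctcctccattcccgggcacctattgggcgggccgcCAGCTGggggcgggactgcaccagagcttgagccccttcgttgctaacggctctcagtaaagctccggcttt
CAGCTG reads the same on both strands and was found in 16.3% of 32851 promoter windows of the same length. CCCNNGGG, a core recognised by early B-cell factors, the Olf-1 family first described at olfactory neuron promoters, also reads the same on both strands and is in 13.7% of the windows. It is not in the windows of Stom, Uchl1, Tubb3, Ncam2 or Dcx, and CAGCTG is in that of Stom alone among these 5. The windows of Omp, Gap43, Stmn2 and Ncam1 were not used here.

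Gap43 encodes growth-associated protein 43, a membrane-bound protein of growth cones that is the usual label of immature olfactory and vomeronasal neurons. The gene (ENSMUSG00000047261.9) lies at chr16:42248442-42340651 on the minus strand, with 3 exons in its main transcript. Its level was 62.8, 59.1 and 76.0 CPM in wild types 1 to 3 and 74.0, 66.8 and 75.7 CPM in knockouts 1 to 3. The highest library was wild type 3, and the groups overlapped. The mean was 66.0 ± 8.92 CPM (SD, n = 3) in the wild types and 72.2 ± 4.71 CPM (SD, n = 3) in the knockouts. On the log2 scale knockouts differed by 0.13 (SE 0.10), with an adjusted p of 0.718 from edgeR, and by 0.02 to 0.24 in the 17 alternatives.

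Stmn2 encodes stathmin 2, a membrane-anchored protein of growing axons that binds tubulin and destabilises microtubules. The gene (ENSMUSG00000027500.10) is at chr3:8509360-8561606 on the plus strand. Its level was 149, 146 and 179.9 CPM in wild types 1 to 3 and 163, 149 and 175 CPM in knockouts 1 to 3. Here too the third libraries were the highest of each genotype, and the groups overlapped. The means were 158 ± 18.9 CPM (SD, n = 3) and 162 ± 12.7 CPM (SD, n = 3) in wild types and knockouts. The log2 fold change of 0.04 (SE 0.10) was smaller than its error, with an edgeR adjusted p of 0.942, and it was below 0 in 5 of 17 alternatives.

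Dcx encodes doublecortin, which binds and stabilises microtubules in migrating and newly formed neurons. The gene (ENSMUSG00000031285.14) is at chrX:143855842-143933311 on the minus strand, and its main transcript of 9074 bases has a coding length of 1098 bases. Its level was 45.5, 45.3 and 49.0 CPM in wild types 1 to 3 and 52.1, 44.3 and 48.1 CPM in knockouts 1 to 3. The highest and the lowest library were both knockouts. The mean was 46.6 ± 2.10 CPM (SD, n = 3) in the wild types and 48.2 ± 3.93 CPM (SD, n = 3) in the knockouts, which on the log2 scale is 0.05 (SE 0.07), with an edgeR adjusted p of 0.880. The estimate was below 0 in 2 of 17 alternatives.

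Tubb3 encodes neuronal class III beta-tubulin, the antigen used to stain neurons from their last division onward. The gene (ENSMUSG00000062380.4) is at chr8:123411424-123422015 on the plus strand. Its level was 235, 231 and 255 CPM in wild types 1 to 3 and 225, 201 and 218 CPM in knockouts 1 to 3. All knockouts were below all wild types in CPM, whereas in TPM, a level per transcript length relative to all transcripts, the groups overlapped. The mean was 240.5 ± 12.9 CPM (SD, n = 3) in the wild types and 215 ± 12.4 CPM (SD, n = 3) in the knockouts. The log2 fold change was -0.16 (SE 0.07), with an unadjusted p of 0.0376 and an adjusted p of 0.437 in edgeR's quasi-likelihood test. Of the Tubb3 31-base words, 96.8% occur in no other gene of the reference, and Tubb6 shares the most, 43 words, so few of its reads could trade with other tubulins.

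Uchl1 encodes ubiquitin C-terminal hydrolase L1, also called PGP9.5, an enzyme of the ubiquitin cycle that is abundant in neurons. The gene (ENSMUSG00000029223.12) is at chr5:66676091-66687234 on the plus strand. Its level was 385, 401 and 326 CPM in wild types 1 to 3 and 328, 317 and 314 CPM in knockouts 1 to 3. Wild type 3 lay among the knockouts, and the other 2 wild types were above every knockout. The mean was 371 ± 39.4 CPM (SD, n = 3) against 319 ± 7.39 CPM (SD, n = 3), with a log2 fold change of -0.22 (SE 0.08), an unadjusted p of 0.0280 and an edgeR adjusted p of 0.393. In TPM, every knockout was below every wild type.

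Ncam1 and Ncam2 encode neural cell adhesion molecules with immunoglobulin and fibronectin domains. Ncam1 is carried by olfactory and vomeronasal axons in general, and Ncam2, also called OCAM, by the axons of some neuron classes. Ncam1 (ENSMUSG00000039542.16, chr9:49502136-49798925, minus strand) was at 317, 307 and 313 CPM in wild types 1 to 3 and 320.0, 286 and 279.9 CPM in knockouts 1 to 3. Knockout 1 was the highest of all, the other knockouts were the lowest, and edgeR estimated a log2 fold change of -0.08 (SE 0.07) at an adjusted p of 0.742. That estimate was -0.14 without knockout 1 and -0.04 without knockout 3. Ncam2 (ENSMUSG00000022762.18, chr16:81200697-81626828, plus strand) was at 29.2, 29.7 and 29.1 CPM in wild types 1 to 3 and 33.6, 27.1 and 29.8 CPM in knockouts 1 to 3. Again a knockout was at each end of the range, and edgeR estimated 0.04 on the log2 scale (SE 0.08) at an adjusted p of 0.921. For both genes the knockouts varied more than the wild types, with a coefficient of variation of 7.35% against 1.65% for Ncam1 and 10.9% against 1.06% for Ncam2.

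**Figure D2:**
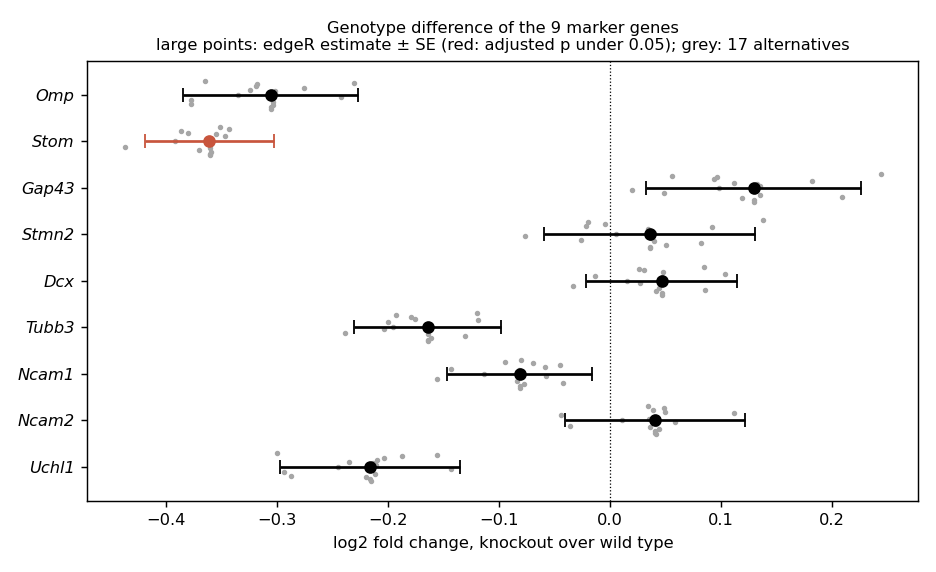
Log2 fold change of the 9 marker genes, knockout over wild type, as edgeR's estimate with bars of 1 SE (n = 3 mice per genotype), and in grey the estimates of 17 alternative analyses. Omp, Stom, Tubb3, Ncam1 and Uchl1 are below 0 in all alternatives and Gap43 is above 0 in all, while Stmn2, Dcx and Ncam2 fall on both sides.

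Levels of different genes were compared per length, as TPM. In the wild types the order was Omp (773 ± 93.8 TPM), Stom (565 ± 48.4), Uchl1 (512 ± 46.6), Tubb3 (189 ± 19.6), Stmn2 (113 ± 17.4), Gap43 (74.1 ± 14.6), Ncam1 (73.6 ± 3.58), Dcx (7.81 ± 0.790) and Ncam2 (6.69 ± 0.511), each as mean ± SD over 3 mice. The library values overlapped between the neighbours Stom and Uchl1, and between Gap43 and Ncam1. Dcx in the wild types (7.21 to 8.70 TPM) was above Ncam2 (6.10 to 6.98 TPM) in every library, by a small margin. So the mature marker Omp was the most abundant of the 9 by this measure, and the immature marker Dcx was among the least.

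In the knockouts Omp came first again, at 595 ± 73.3 TPM (SD, n = 3). Stom and Uchl1 were level at 417 ± 39.0 and 417 ± 42.4 TPM, Tubb3 was at 161 ± 21.7 TPM, and Stmn2 was at 111 ± 18.7 TPM. Gap43 (76.3 ± 12.0 TPM) and Ncam1 (66.2 ± 6.90 TPM) overlapped again. Dcx (7.64 ± 1.16 TPM) was above Ncam2 (6.54 ± 1.07 TPM) within each knockout library, as in the wild types, though their ranges over the knockouts overlapped. The order of the genes was thus nearly the same in both genotypes.

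The balance of immature to mature genes was higher in every knockout than in every wild type. Gap43, Stmn2 and Dcx together had 12.0, 10.6 and 14.3 CPM per 100 CPM of Omp and Stom in wild types 1 to 3, and 16.3, 15.2 and 16.6 in knockouts 1 to 3. Wild type 3 came closest to the knockouts, and the wild types were spread more widely. The mean was 12.3 ± 1.87 (SD, n = 3) in the wild types and 16.1 ± 0.744 (SD, n = 3) in the knockouts. On the log2 scale the balance was -3.04 ± 0.22 (SD, n = 3) in the wild types and -2.64 ± 0.07 (SD, n = 3) in the knockouts, a difference of 0.40. As a score over chosen genes it was given no p, and 16.2% of all genes tested had groups that did not overlap in either direction.

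The parts of the ratio moved unequally. The summed immature genes were at 257, 250.2 and 305 CPM in wild types 1 to 3 and at 289, 260.4 and 298 CPM in knockouts 1 to 3. These groups overlapped, with means of 271 ± 29.8 and 283 ± 19.8 CPM (SD, n = 3 each). The summed mature genes were at 2152, 2358 and 2133 CPM in wild types 1 to 3 and at 1767, 1713 and 1797 CPM in knockouts 1 to 3. Every knockout was lower, with means of 2214 ± 125 and 1759 ± 43.0 CPM (SD, n = 3 each). The difference in the ratio thus went with lower Omp and Stom, and no rise of the immature genes was detectable at this spread.

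**Figure D3:**
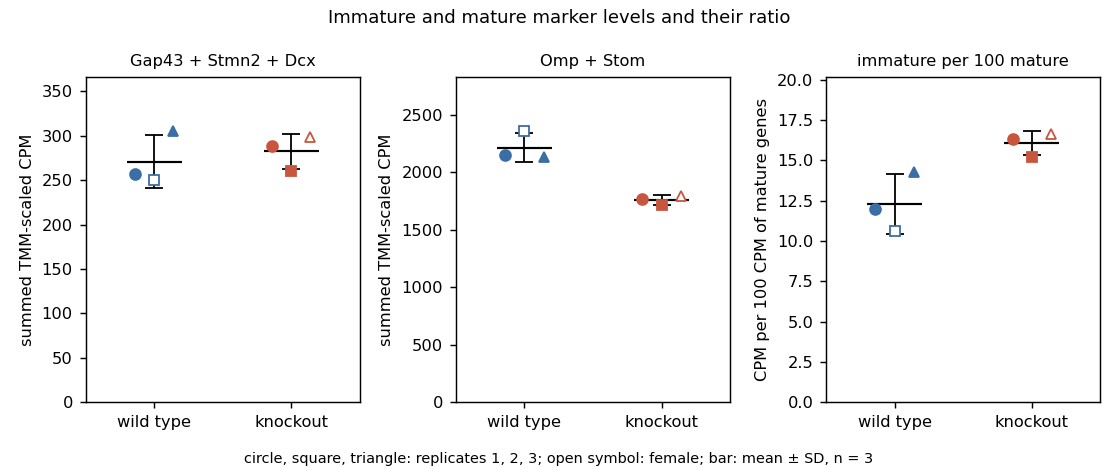
Summed CPM of Gap43, Stmn2 and Dcx (left), summed CPM of Omp and Stom (middle) and the first per 100 CPM of the second (right) in each library, with the mean and 1 SD (n = 3 mice per genotype). The immature sums overlap, the mature sums are lower in all knockouts, and the ratio is 15.2 to 16.6 in the knockouts and 10.6 to 14.3 in the wild types.

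The balance did not hinge on 1 immature gene, but every definition kept Omp among the mature genes. Omp and Stom were themselves lower in every knockout, so the definitions below are not separate support. Taken from Gap43 alone the difference in log2 balance was 0.47, from Stmn2 alone 0.37 and from Dcx alone 0.38, each against Omp and Stom, and with Omp as the only mature gene it was 0.37. On TPM, which gives short and long transcripts equal weight, it was 0.41. The groups did not overlap in any of the 8 definitions tried. Leaving out 1 library at a time gave 0.29 (without wild type 2) to 0.51 (without wild type 3), and the first and second libraries alone gave 0.48. Among the males the difference was 0.27, with 2 mice of each genotype, and the female pair lay at -3.24 in the wild type and -2.59 in the knockout.

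Single pairs of genes gave the same order in 5 of 6 cases. The pairs share Omp or Stom as the divisor, both lower in every knockout, so they are not separate from one another. Gap43 per 100 CPM of Omp was 5.59, 4.67 and 7.24 in wild types 1 to 3 and 7.78, 7.53 and 8.02 in knockouts 1 to 3. Dcx per 100 CPM of Stom was 4.43, 4.14 and 4.53 in wild types 1 to 3 and 6.39, 5.37 and 5.63 in knockouts 1 to 3. Both pairs were higher in all knockouts. The exception was Stmn2 per 100 CPM of Omp, at 13.2, 11.5 and 17.1 in the wild types and 17.1, 16.8 and 18.5 in the knockouts, where wild type 3 lay among the knockouts. Within the mature pair, Stom per 100 CPM of Omp was 93.6 ± 8.48 in the wild types and 89.7 ± 3.65 in the knockouts (SD, n = 3 each), and the groups overlapped. Within the immature genes, Gap43 per 100 CPM of Stmn2 was 41.7 ± 0.988 in the wild types and 44.5 ± 1.12 in the knockouts (SD, n = 3 each), higher in all knockouts.

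Whether the effect of genotype differed between the sexes rests on 1 female per genotype. No marker gene was called for the interaction of genotype and sex in edgeR's quasi-likelihood test, with adjusted p of 0.958 to 0.999, and 0.024% of all genes tested were called. The log2 ratio of knockout to wild type was -0.36 in males and -0.36 in females for Stom. For Omp it was -0.24 in males and -0.42 in females. Gap43 was at 0.02 in males and 0.36 in females, and Stmn2 at -0.08 and 0.26, with interaction terms of 0.34 each (SE 0.18 and 0.19). Both terms were 0.46 (SE 0.14) without wild type 1 and 0.19 (SE 0.14) without wild type 3, with edgeR adjusted p of 0.321 and 1.00. They come from 1 pair of females, in which the wild type had the lowest Gap43 and Stmn2 and the highest Omp of all libraries.

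Annotated transcripts of the marker genes were examined because Ncam1, Ncam2 and Uchl1 each divided their reads among forms that differ in sequence. Shares are estimates, since most reads of a gene fall on parts that its transcripts have in common. Omp and Tubb3 had all reads in 1 transcript, and the first transcript of Stom, Gap43, Stmn2 and Dcx held at least 94.6% in every library. For Ncam1, a form (Ncam1-205) that carries exons absent from the main transcript is annotated. The sequences below show, in capitals, its exon of 30 bases at chr9:49550540-49550569 on the minus strand, known as VASE and lying within the coding part for the fourth immunoglobulin domain, and its exon of 15 bases at chr9:49541888-49541902. Lower case letters are the neighbouring exons in the spliced transcript. All transcript sequences and positions are those of GENCODE M21 on GRCm38.
Ncam1 VASE exon: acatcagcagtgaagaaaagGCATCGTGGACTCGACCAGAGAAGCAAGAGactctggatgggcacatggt
Ncam1 exon of 15 bases: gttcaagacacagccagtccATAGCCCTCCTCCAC
Ncam1-205 took 27.95%, 27.5% and 33.3% of the gene's reads in wild types 1 to 3 and 32.0%, 26.1% and 33.6% in knockouts 1 to 3. The genotypes overlapped, and the third libraries were the highest of each. The same annotated form also holds a coding exon of 801 bases and begins within the coding sequence, so its share cannot be assigned to any single exon.

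Ncam2 transcripts end in 2 ways that place the protein differently in the membrane. Ncam2-202 continues into a membrane-spanning segment and a cytoplasmic tail, and Ncam2-201 ends in a short segment for a lipid anchor. The coding sequence after the last shared exon is in capitals, in full for Ncam2-201 (104 bases, chr16:81595207-81595310) and for the first 120 of 205 bases of the exon of Ncam2-202 (chr16:81615703-81615907), both on the plus strand.
Ncam2-201 end: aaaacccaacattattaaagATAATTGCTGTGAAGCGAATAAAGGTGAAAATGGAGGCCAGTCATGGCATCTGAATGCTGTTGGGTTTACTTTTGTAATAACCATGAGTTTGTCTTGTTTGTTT
Ncam2-202 end: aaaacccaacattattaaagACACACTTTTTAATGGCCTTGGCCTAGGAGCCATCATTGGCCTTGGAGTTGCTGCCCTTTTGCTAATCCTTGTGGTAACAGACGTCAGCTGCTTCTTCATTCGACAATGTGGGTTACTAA
The lipid-anchored form took 9.40%, 11.7% and 12.7% of the gene's reads in wild types 1 to 3 and 10.9%, 12.2% and 10.2% in knockouts 1 to 3. Means were 11.3% ± 1.71 and 11.1% ± 1.04 (SD, n = 3 each), so the groups overlapped and the membrane-spanning form dominated in both.

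Uchl1 had a second annotated transcript, Uchl1-202, which has no coding sequence and retains an intron. Its first 52 bases, in capitals below, lie at chr5:66676892-66676943 on the plus strand and are intronic in the coding transcript Uchl1-201. Letters in lower case are the exon that both share.
Uchl1-202 start: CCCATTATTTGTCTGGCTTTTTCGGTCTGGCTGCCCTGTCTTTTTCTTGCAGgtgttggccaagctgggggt
This transcript took 3.73%, 4.83% and 21.6% of Uchl1 reads in wild types 1 to 3 and 4.22%, 1.80% and 16.3% in knockouts 1 to 3. The third library of each genotype was far above the other 4, and the genotypes overlapped. The higher share went with the higher share of retained introns over all reads in these libraries, and in the first and second libraries alone the log2 fold change of Uchl1 was -0.29 (edgeR adjusted p = 0.197). In males only it was -0.14 and without wild type 2, the female with the highest Uchl1, it was -0.16. Gap43-202, a non-coding transcript of Gap43, showed the same libraries on top, with 5.38% and 3.67% against 1.31% to 2.40% in the others. Stom-202, a retained-intron transcript of Stom, went the other way, with 0.242% in wild type 3 and 0.925% in knockout 3 against 1.503% to 2.42% in the others.

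**Figure D4:**
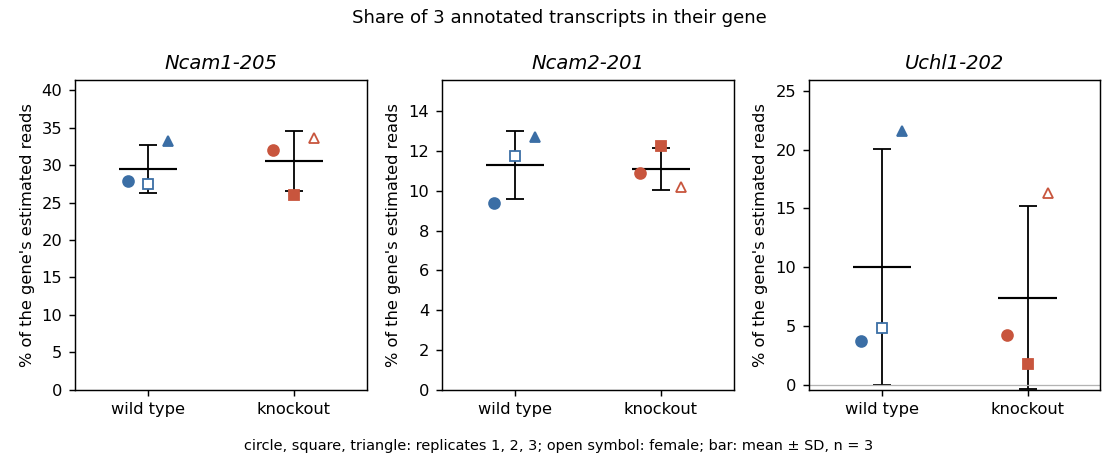
Share of the gene's estimated reads, in percent, taken by Ncam1-205, Ncam2-201 and Uchl1-202 in each library, with the mean and 1 SD (n = 3 mice per genotype). The genotypes overlap for all 3 transcripts, and for Uchl1-202 the third library of each genotype (triangle) is at 21.6% and 16.3% while the others are below 5%.

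Lists of related genes were read beside the marker genes, by counts and medians alone. Over all genes tested, the shares to set beside these counts are 0.683% called lower, 47.7% with a log2 fold change below 0, 8.95% lower in every knockout and 7.22% higher in every knockout. Of 16 other growth cone and microtubule genes, none was called, 12 had a log2 fold change below 0, 4 were lower and none higher in every knockout, and the median was -0.06. The smallest p in the list were those of Stmn3, a relative of Stmn2 (-0.14, edgeR adjusted p = 0.373), and Dpysl2, a partner of tubulin in axon growth (-0.21, edgeR adjusted p = 0.385). Stmn1, the widely expressed stathmin, was at 0.04 and Basp1, a membrane protein of growth cones like Gap43, at 0.08. The median of the list was -0.11 without knockout 1, -0.04 without knockout 2 and -0.13 on log2(TPM + 1).

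Of 8 genes of precursors and early neurons, none was called, and the median was 0.24, or 0.15 on log2(TPM + 1). Cd24a, a surface protein of immature neurons, was at 537, 499.6 and 533 CPM in wild types 1 to 3 and 623, 629.8 and 609 CPM in knockouts 1 to 3. All knockouts were higher, with a log2 fold change of 0.25 (SE 0.06) and an edgeR adjusted p of 0.143. Gng8, a G protein gamma subunit gene of the list, went the other way (log2 fold change -0.32, SE 0.10, edgeR adjusted p = 0.294). It was at 133, 119.6 and 142 CPM in the wild types and 110.3, 91.7 and 115 CPM in the knockouts. Whether its transcripts came from immature or mature neurons in this organ was not tested. Neurog1, a transcription factor of the precursors, had a positive estimate of 0.66 (SE 0.30) at levels of 1.12 to 3.44 CPM, with overlapping groups and an edgeR adjusted p of 0.499. The list thus held genes with estimates in both directions. Without the third libraries Gap43 itself was at 0.21 (edgeR adjusted p = 0.385), Stmn2 at 0.08 and Dcx at 0.09, none of them called. In males only Gap43 was at 0.02 and Stmn2 at -0.08.

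Of 10 genes of the mature vomeronasal neuron, 2 were called, both lower in the knockouts, against 0.683% of all genes tested, 8 were below 0 (47.7% of all genes), and the median was -0.11. That median was -0.19 without wild type 1, -0.21 without knockout 2, -0.21 on log2(TPM + 1) and -0.05 in the first and second libraries alone. Gnao1, the G protein subunit of basal neurons, was at 305, 306 and 320.1 CPM in wild types 1 to 3 and 239.6, 225 and 237 CPM in knockouts 1 to 3 (log2 fold change -0.41, SE 0.05, edgeR adjusted p = 0.0143). Slc17a6, the vesicular glutamate transporter of these neurons, was at 107 ± 4.21 CPM (SD, n = 3) in the wild types and 82.4 ± 2.08 CPM (SD, n = 3) in the knockouts (log2 fold change -0.38, SE 0.05, edgeR adjusted p = 0.0203). Both fell by about as much as Stom. Across the 17 alternatives Gnao1 was called in 8 and Slc17a6 in 7. Leaving out 1 library kept the call in 1 of 6 cases for each gene, without knockout 3 for Gnao1 and without wild type 1 for Slc17a6, with edgeR adjusted p of 0.0394 to 0.0854 for Gnao1 and 0.0490 to 0.122 for Slc17a6. Trpc2, which both neuron classes use, had an estimate of -0.32 (edgeR adjusted p = 0.197) with all knockouts lower, and Gnai2, of apical neurons, was higher in all knockouts at 0.17 (edgeR adjusted p = 0.377). Stoml3, also in the list and known from main olfactory neurons, was at 33.9, 45.6 and 53.6 CPM in wild types 1 to 3 and 49.6, 57.8 and 21.9 CPM in knockouts 1 to 3, the same order of libraries as the main olfactory gene Gnal.

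Of the 5 apical markers none was called and the median was 0.09 (0.04 without wild type 3, and 0.01 to 0.13 over the 17 alternatives). Of the 4 basal markers Gnao1 was called and the median was -0.24. The summed basal markers were at 515 to 537 CPM in the wild types and at 423 to 445 CPM in the knockouts, without overlap. The summed apical markers overlapped, at 1338 to 1463 and 1366 to 1456 CPM, but this sum mixes opposite directions. Kirrel2 was lower in every knockout (-0.61), Gnai2 (0.17) and Meis2 (0.14) were higher in every knockout, and Pde4a and Nrp2 overlapped. Among the basal markers Gnao1, at 310 and 234 CPM on average, was the largest part of the sum. Gnao1, Tfap2e and Robo2 were lower in every knockout, as Omp and Stom were, while Kirrel3 was at 0.00 with overlapping groups. The part of basal neurons in the lower Omp and Stom was not tested.

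Of 15 pan-neuronal genes tested, none was called, 12 were below 0 (47.7% of all genes tested), 8 were lower (8.95%) and none higher (7.22%) in every knockout, and the median was -0.19. Syp, which encodes synaptophysin of synaptic vesicles, was at 331, 357 and 321 CPM in wild types 1 to 3 and 283, 266 and 279.5 CPM in knockouts 1 to 3. Every knockout was lower, by 0.28 in log2 terms (estimate -0.28, SE 0.06), at an edgeR adjusted p of 0.116. Vamp2, a vesicle protein of transmitter release, had -0.29 (SE 0.07, edgeR adjusted p = 0.146), and its groups did not overlap either. The genes of the list with knockouts all lower were Elavl3, Snap25, Syt1, Stx1a, Syp, Syn1, Vamp2 and Mapt. Without wild type 3 the median of the list was -0.13.

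Of 8 genes for partners of the Ncam proteins and for the enzymes that add polysialic acid to Ncam1, none was called, and the median was 0.08, or 0.05 without wild type 2 and -0.02 on log2(TPM + 1). Gfra1, a receptor subunit for glial cell line-derived factors that also pairs with Ncam1, was at 0.20 (SE 0.08, edgeR adjusted p = 0.439), with all knockouts higher. Cntn1, an axonal adhesion protein, was at -0.15 (SE 0.06, edgeR adjusted p = 0.424), with all knockouts lower. The polysialyltransferase genes St8sia2 and St8sia4 lay at 2.80 to 3.75 and 4.82 to 6.80 CPM. Of 19 close relatives of the marker genes, among them the stomatin-like, tubulin and doublecortin-like kinase genes, none was called, and the median was -0.02, between -0.11 and 0.00 in the alternatives.

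**Figure D5:**
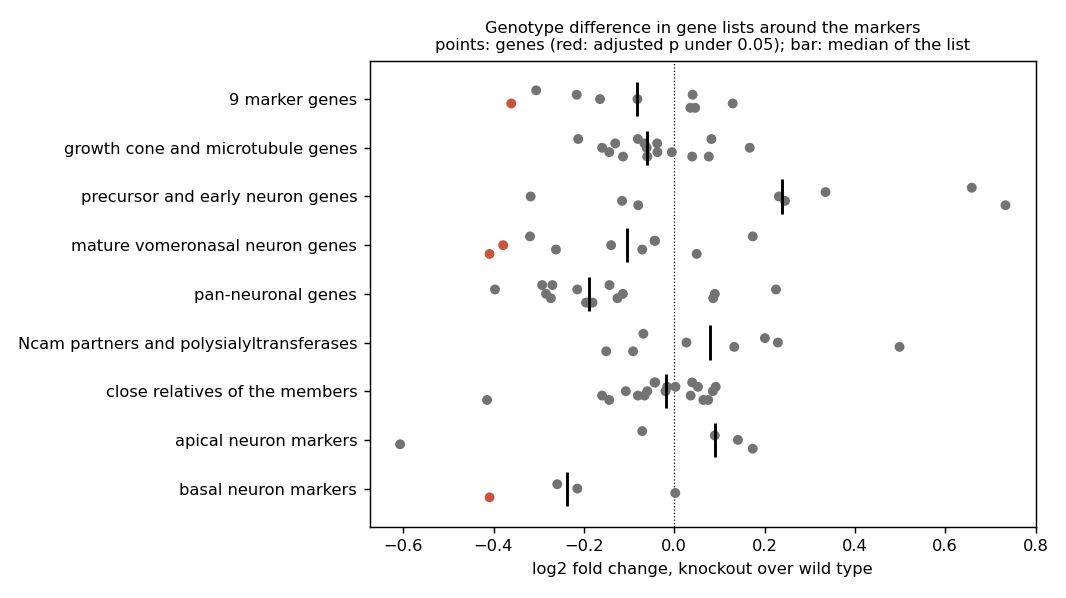
Log2 fold change, knockout over wild type, of each gene in the marker set and in 8 lists around it, with a bar at the median of each list and genes with an edgeR adjusted p under 0.05 in red. The called genes are Stom, Gnao1 (in 2 lists) and Slc17a6, all below -0.35, and the pan-neuronal list is centred at -0.19.

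Markers of other cell types were read for the same libraries. The summed supporting cell markers were at 2208 to 2417 CPM in the wild types and 2151 to 2364 CPM in the knockouts, the glial markers at 233 to 252 and 215 to 304 CPM, and the erythroid markers at 319 to 532 and 342 to 631 CPM. All 3 sums overlapped between genotypes, and no gene of these lists was called. The 8 immune markers all had positive estimates, none called, with a median of 0.16. Their sums were 211 to 231 CPM in the wild types and 227 to 256 CPM in the knockouts, with overlap. The 7 erythroid markers were all above 0 as well, with a median of 0.13, and 47.7% of all genes tested were below 0. The 5 main olfactory neuron markers summed to 1640 to 1817 CPM in the wild types and 1410 to 1644 CPM in the knockouts, with overlap, and none was called. Their median was -0.10, with 0.22 without knockout 3, 0.06 without wild type 3 and -0.21 without knockout 1. Rtp2, a receptor transport gene, was lower in all knockouts at -0.19 (edgeR adjusted p = 0.241), Gfy was at -0.21 (edgeR adjusted p = 0.445) and Adcy3 at 0.10. Gfy lay at 1152 to 1557 CPM, far above the other 4, so the sum mostly reads Gfy and does not follow Cnga2 or Gnal. Of these markers, Cnga2 and Gnal, which vomeronasal neurons are known to lack, lay at 13.0 to 21.4 and 34.4 to 54.4 CPM in the wild types and at 8.83 to 22.05 and 19.3 to 55.7 CPM in the knockouts, lowest in knockout 3. Omp, Gap43 and Ncam1 are also expressed by main olfactory neurons. Knockout 3 was the lowest library for Ncam1 and Uchl1 among the 9 genes. The part of these cells in the marker levels was not tested.

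The genes whose profile over the 6 libraries was most like that of Omp were Syp, St6galnac6 and Acot7, among 10782 genes averaging 10 CPM or more. Likeness was the root mean square difference of mean-centred log2 CPM, which was 0.035 for Syp, 0.0418 for St6galnac6 and 0.0419 for Acot7. Of the marker genes, Uchl1 ranked 23 and Stom 84 by likeness to Omp. For Gap43 the nearest were Sall1 (0.0289), Vmn1r184 (0.0362) and Dusp18 (0.0368). Stmn2 ranked 22 and Dcx 341 by likeness to Gap43, and Omp ranked 10290. Gap43 was thus nearer in profile to Stmn2 and Dcx than to Omp.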

How the data were processed

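For each library a deposited table gives, per the file headers, an estimated count (reads) and a TPM value (a level per effective length, relative to all transcripts) of 117081 transcripts. The submitters' processing notes name Trim Galore 0.6.6, Salmon 1.9.0, DESeq2 and the builds mm10 and GRCm38, with no role given. Transcripts were joined by identifier to genes of GENCODE M21 (GRCm38): 115942 matched, and the 1139 others, with 0.304% of reads, were left out. Estimated counts were summed per gene and rounded. The 16679 genes kept by filterByExpr were tested with edgeR 4.0.16 (R 4.3.3): TMM scaling, genotype as the only term, quasi-likelihood F test, Benjamini-Hochberg adjustment over all genes, and a call at an adjusted p under 0.05. The standard error is the log2 fold change divided by the square root of F. DESeq2 1.42.0 and limma 3.58.1 (voom on counts, trend on log2(TPM + 1)) were alternatives, beside other scalings, a sex term, a replicate block, subsets and leaving out each library. The effective length offset and the first and second libraries alone were chosen after seeing the data. Fold changes on log2(TPM + 1) understate those of low genes. The marker genes and lists were chosen with earlier results of these data known. Named genes were the 9 markers, Cnpy1, called list genes, the 2 smallest p in 5 of the lists (growth cone and microtubule, precursor and early neuron, mature vomeronasal, pan-neuronal, and Ncam partners), and the 3 genes most like Omp and Gap43. Further names were picked with their values in view. The number of reads per marker gene and library ran from 1581 to 80571, and the common biological coefficient of variation was 12.8%. Scripts were tested on simulated data.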

Additional observations from a re-analysis of the deposited data

How the results depend on the processing

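The direction of Omp, Stom, Gap43, Tubb3, Ncam1 and Uchl1 held in all 17 alternatives and that of the balance in all 15, while Stmn2, Dcx and Ncam2 changed sign in 5, 2 and 2 of 17 without a call. The number of marker genes called was 1, and it was 2 with DESeq2 and 0 with no scaling factors, on log2(TPM + 1), with the replicate block, in males only, in the first and second libraries alone and without any 1 library (0 to 0). Over all genes, 127 were called, against 401 with DESeq2, 72 on log2(TPM + 1), 76 in males, 84 in the first and second libraries and 69 to 96 without 1 library. Called lower were 114 genes, against 309, 70, 67 and 70 in the same order, and 66 to 79 without 1 library. Called higher were 13, against 92 with DESeq2, 2 on log2(TPM + 1), 8 with no scaling factors, 23 with low counts kept, 8 with a sex term, 33 with the replicate block and 3 to 25 without 1 library. For the interaction with sex, 4 genes were called, against 7 with no scaling factors, 22 with low counts kept, 38 with DESeq2, 64 on log2(TPM + 1) and 12 to 46 without 1 male library; it could not be fitted with the block or without a female. The cause of these changes in count was not tested, and the subsets also hold fewer libraries.

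The labels number the libraries but name no shared litter or batch for a number. Deviations from the group means correlated at 0.14, -0.11 and 0.22 across genes for the same-numbered pairs, so the numbers were not taken to pair the mice. With the replicate block, 154 genes were called in all, and not every library correlated best with its own number. The median log2 fold change of all genes was 0.01 with TMM and with RLE scaling, -0.03 with no scaling factors, and -0.06 on log2(TPM + 1), which changes unit and model as well.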

Other observations

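Kirrel2, an adhesion gene of the axons of apical neurons and one of the 5 apical markers, was at 312, 341 and 249.7 CPM in wild types 1 to 3 and at 194, 168 and 231 CPM in knockouts 1 to 3. Every knockout was lower, with a log2 fold change of -0.61 (SE 0.14) and an edgeR adjusted p of 0.143, so it was not called. The other 4 apical markers lay between -0.07 and 0.17. It was named after its values were seen. Among the basal markers, Tfap2e, a transcription factor of basal neurons, had -0.26 (SE 0.07, edgeR adjusted p = 0.230) and Robo2, an axon guidance receptor, had -0.21 (SE 0.06, edgeR adjusted p = 0.272), both lower in all knockouts. Kirrel3 was at 0.00 with overlapping groups.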
